A study of Drosophila melanogaster with 4 samples.

Results

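Reads on 8 nuclear-encoded genes of the mitochondrial stress and ATF4 response (crc, Thor, Nmdmc, Ldh, ImpL2, Hsp60A, Hsc70-5 and HtrA2) were compared between control and DmAngel KO larvae of Drosophila melanogaster. The 8 genes were taken by name from 17846 genes outside the mitochondrial DNA (mtDNA), each the sum of its FBtr rows, which are the Ensembl transcript entries of the counts. They were picked with this comparison of these libraries already known, so their KO against control values are given as a description, with no test. The series held 4 small RNA libraries, 2 of control larvae (wDah, labelled Angel+/+) and 2 of larvae homozygous for a germline CRISPR/Cas9 deletion of DmAngel (labelled Angel-/-), all harvested as third-instar larvae 4 days after egg laying. DmANGEL is a mitochondrial protein of the CCR4 family, and the homozygotes die as pupae, so both groups were compared at an age the KO still reached. Equal age does not show equal progress through the last instar, which was not tested. Whole larvae were homogenised, crude mitochondria were digested with 200 U RNase T1 for 30 min and spun through a sucrose gradient, and libraries were made from its pooled monosome fractions. The reads on nuclear-encoded messages are therefore protected fragments that came down with mitochondrial monosomes, and not a measure of total mRNA. The labels do not name the KO line, which the study's own description of its ribosome profiling gives as KO-1, from independent experiments. The design text given to GEO speaks of technical replicates instead, so p-values may measure only a technical spread between these samples.

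ATF4 is a transcription factor made when phosphorylation of eIF2alpha slows general translation, and mitochondrial faults are among the stresses that induce it. Its targets include genes of amino acid and one-carbon metabolism and, in flies, the translation inhibitor Thor. In the mitochondrial unfolded protein response, chaperones and proteases of the organelle are made from nuclear genes when proteins inside it misfold. Among the 8 genes, crc encodes fly ATF4, Thor, Nmdmc, Ldh and ImpL2 act in translation, folate metabolism, fermentation and insulin signalling, and Hsp60A, Hsc70-5 and HtrA2 encode proteins that fold or cleave other proteins in mitochondria.

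The libraries held 1789947 to 8227127 reads, of which 457054 to 1324943 fell on FBtr rows. This was 25.5 to 31.9% of the reads in control and 6.30 to 6.93% in KO, so the KO libraries were larger while their nuclear-encoded share was smaller. Values below are reads per 1000000 reads on FBtr rows (RPM), and a count of 3 reads corresponds to 2.26 to 6.56 RPM. Intervals are 95% Wilson intervals and cover counting error only. Reads on the angel gene numbered 2 and 0 in the controls and 1 in each KO library, too few to check the deletion. The 6 fat body markers (Lsp1alpha, Lsp1beta, Lsp1gamma, Lsp2, Fbp1 and Fbp2) took 312164 and 165484 RPM in control and 36972 and 23338 RPM in KO. This alone raises the RPM of other genes in KO. Across the 3003 genes with enough reads to test, 57% had both KO libraries above both controls in RPM. Fold changes were therefore taken from edgeR's quasi-likelihood fit with TMM scaling (trimmed mean of M values, which rescales libraries so that most genes centre near no change), in which the median log2 fold change of the 3003 genes was 0.01.

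Of the 8 genes, 7 had both KO libraries above both controls in RPM, beside 57% of the genes tested, and Nmdmc was the exception. None had both KO libraries below both controls, as 10.4% of the genes tested did. With TMM scaling, 7 of the 8 genes passed the filter on low counts and 3 of those (Thor, ImpL2 and HtrA2) had an adjusted p (Benjamini-Hochberg over all genes) under 0.05 in edgeR's fit, all higher in KO, beside 4.16% of all genes tested. None was called lower, beside 6.99% of all genes. The genes were chosen on this contrast, so nothing is read from that count, which varied from 1 to 6 over the other settings tried on genes and was 1 or 2 when a single library was left out. HtrA2 was counted in all of them. Thor and HtrA2 were low in control and passed the filter through their KO libraries. With library size from all rows, where the median of all genes was -1.50, crc was called lower, and the fitted log2 fold changes of crc (-1.27), Hsc70-5 (-0.95), Ldh (-0.81), Hsp60A (-0.37) and ImpL2 (-0.06) were all below 0. The log2 fold changes of the 7 ran from 0.17 for crc to 4.78 for HtrA2.

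**Figure D1:**
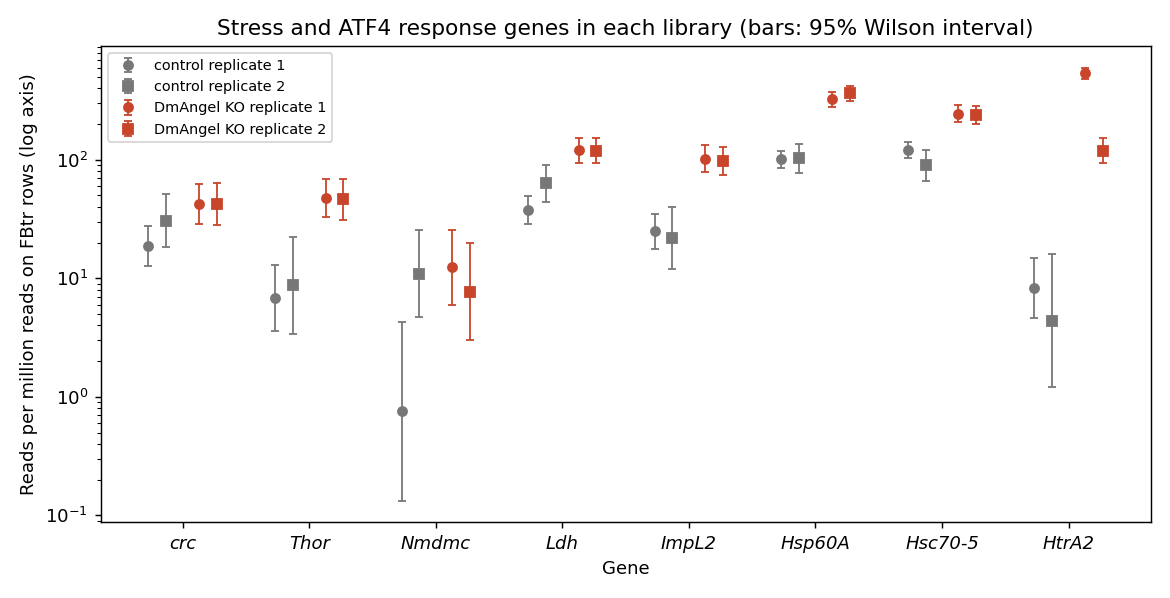
RPM of the 8 genes in each library on a log axis, with bars for the 95% Wilson interval, grey for control and red for DmAngel KO. The KO points lie above the control points for every gene but Nmdmc, and HtrA2 has the widest gap between its KO libraries, at 536 and 120 RPM.

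The gene for ATF4 itself, crc (2L:21310866-21319527, plus strand; coordinates here and below are from the BDGP6.54 annotation), showed the smallest fitted difference of the 7. It had 18.9 and 30.6 RPM in control and 42.4 and 42.5 RPM in KO, from 25, 14, 24 and 22 reads. Both KO libraries were above both controls, although the interval of control replicate 2 (18.2 to 51.4 RPM) took in both KO values. With TMM scaling the log2 fold change was 0.17 ± 0.45 (SE, n = 2 per group), a ratio of 1.13, and it ranked at percentile 57.0 of all genes tested. Control replicate 1 decided its sign, since without it the value relative to the median of all genes was -0.35. ATF4 is controlled largely through upstream open reading frames in its message, so the level of crc fragments is not a measure of ATF4 protein. The crc exons share 2515 bases with CG46314 on the same strand, which had 6, 2, 8 and 7 reads, and reads from the shared bases cannot be assigned to either gene.

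Thor encodes 4E-BP, which binds the cap-binding factor eIF4E and holds back cap-dependent translation, and it is a target of both ATF4 and Foxo in flies. Thor (2L:3478434-3479612, plus strand) had 6.79 and 8.75 RPM in control and 47.6 and 46.3 RPM in KO, from 9, 4, 27 and 24 reads. In RPM the replicates of each group lay close together and the intervals did not meet. The highest control bound was 22.5 RPM and the lowest KO bound 31.1 RPM. TMM scaling narrows this gap, with factors of 0.783 and 0.796 in control and 1.34 and 1.20 in KO. No separation of the intervals is claimed on that scale. The log2 fold change was 1.95 ± 0.48 (SE), a 3.88-fold ratio at percentile 97.0 of all genes tested. Without control replicate 1 the value relative to the median of all genes was 1.58, against 1.94 with all libraries.

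Nmdmc encodes the mitochondrial methylenetetrahydrofolate dehydrogenase of the folate cycle. Nmdmc (3R:9042508-9050555, minus strand) had 1, 5, 7 and 4 reads, or 0.75 and 10.9 RPM in control and 12.4 and 7.72 RPM in KO. The 2 groups overlapped, the controls spanned more than the KO libraries did, and 17 reads in all were too few to pass the filter. A fit without that filter gave a log2 fold change of 0.67 ± 0.85 (SE), so a difference was not detectable at this depth. Rel lies over Nmdmc on the same strand without sharing exon bases, and Mst85C on the opposite strand shares 7 bases.

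Ldh, lactate dehydrogenase, turns pyruvate into lactate and restores NAD+ when respiration is limited. Ldh (3L:6259105-6262694, minus strand) had 37.7 and 63.4 RPM in control and 120.0 and 119.7 RPM in KO, from 50, 29, 68 and 62 reads. The KO libraries were nearly equal and the controls differed from each other, with no overlap between groups. The log2 fold change of 0.61 ± 0.39 (SE), a ratio of 1.53, stood at percentile 76.4 of all genes tested. It leaned on control replicate 1, without which the value relative to the median of all genes was 0.10.

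ImpL2 encodes a secreted protein that binds insulin-like peptides and dampens insulin signalling. ImpL2 (3L:4224006-4236147, minus strand) had 24.9 and 21.9 RPM in control and 102 and 98.4 RPM in KO, from 33, 10, 58 and 51 reads. The means were 23.4 ± 2.14 RPM in control and 100.4 ± 2.76 RPM in KO (SD, n = 2). An SD of 2 libraries measures the spread within a group poorly. The 10 reads of control replicate 2 alone gave an interval of 11.9 to 40.3 RPM. The log2 fold change was 1.39 ± 0.40 (SE), or 2.62-fold, at percentile 93.6 of all genes tested.

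The mitochondrial chaperones had the highest RPM of the 8 genes in control. Hsp60A (X:11108482-11112308, plus strand), the chaperonin of the matrix, had 101 and 103 RPM in control and 325 and 363 RPM in KO, from 134, 47, 184 and 188 reads. Control replicates differed by less than counting error, and the groups were apart with intervals that did not meet (136.7 RPM at most in control and 281 RPM at least in KO). The log2 fold change was 1.07 ± 0.34 (SE), a 2.11-fold ratio at percentile 88.4 of all genes tested. Hsc70-5 (2R:14252598-14256192, minus strand), the mitochondrial Hsp70 that pulls in and folds imported proteins, had 121 and 89.7 RPM in control and 245 and 239 RPM in KO, from 160, 41, 139 and 124 reads. Both KO libraries were again the higher pair, with a log2 fold change of 0.50 ± 0.34 (SE), a ratio of 1.42 at percentile 72.3. Without control replicate 2, the Hsc70-5 value relative to the median of all genes was 0.13, while that of Hsp60A stayed between 0.85 and 1.09 whichever library was left out.

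HtrA2 encodes a serine protease of the mitochondrial intermembrane space that takes part in protein quality control. HtrA2 (3R:14509049-14511712, minus strand) had 8.30 and 4.38 RPM in control and 536 and 120 RPM in KO, from 11, 2, 304 and 62 reads. It had the largest difference of the 8 genes and the largest spread, with a KO mean of 328 ± 295 RPM (SD, n = 2) against 6.34 ± 2.78 RPM in control. Its KO libraries disagreed beyond counting error, since their intervals ran from 479 to 600 RPM and from 93.4 to 153 RPM, yet the lower of them was above the highest control bound of 16.0 RPM. The log2 fold change was 4.78 ± 0.69 (SE), or 27.5-fold, and only 4 of the genes tested had a higher one, which put it at rank 5. KO replicate 1 carried much of the size, and without it the value relative to the median of all genes was 3.32, against 4.77 with both.

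Isoform entries of a gene share most of their bases, and how reads were split between entries they match equally well is not given in the sources used here, so isoform reads were read only where an entry has bases of its own. HtrA2 was the uneven case. Of its 379 reads, 375 were on HtrA2-RB and 4 on HtrA2-RA, with 10, 2, 301 and 62 against 1, 0, 3 and 0 in control 1, control 2, KO 1 and KO 2. HtrA2-RB carried all but 1 of the control reads and all but 3 of the KO reads, a share of 90.9% in control replicate 1 with an interval of 62.3 to 98.4%, so a difference in this split was not detectable at this depth. The coding sequence of 1266 bases is the same in both entries, and the whole of HtrA2-RA (1415 bases) lies inside HtrA2-RB (2512 bases). The other 1097 bases belong to HtrA2-RB alone, 252 in the 5′ UTR and 845 in the 3′ UTR. No read can belong to HtrA2-RA alone. The nested pairs of Hsc70-5 and Thor, described below, had 233 and 231 reads and 35 and 29 reads. If reads on bases shared by the HtrA2 entries were split in the same way, most of the 375 lay on the 1097 UTR bases of HtrA2-RB alone. Few would then lie on coding sequence. Counts per entry do not show positions, so this was not tested.

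In the other genes the reads were spread over the entries. Hsc70-5-RB and Hsc70-5-RA had 233 and 231 reads, and Hsc70-5-RB lies wholly inside Hsc70-5-RA. Hsp60A-RA and Hsp60A-RB, which differ in their first exon, had 297 and 256 reads. Thor-RA and the nested Thor-RB had 35 and 29, and the 4 entries of Ldh had 42 to 63. These near-even splits carry no isoform preference that the counts could show. ImpL2-RD, the ImpL2 entry with 704 bases of 3′ UTR of its own, held 48.8% of the pooled ImpL2 reads in control and 47.7% in KO, with intervals in the single libraries that all overlapped. ImpL2-RA, with 245 bases of its own, held 21.2 and 30% of the reads in control and 13.8 and 5.88% in KO, while ImpL2-RC, with 67, held 6.06 and 0% and then 12.1 and 13.7%. Neither share overlapped between groups, but both rest on 0 to 8 reads per library and their intervals overlapped. Hsc70-5-RB did not overlap either, at 53.8 and 53.7% in control and 46.8 and 48.4% in KO, nor did several other entries. Nothing is read from such shares. Of the crc entries with bases that no other crc entry has, crc-RE took 32 and 14.3% of the crc reads in control and 37.5 and 36.4% in KO. For crc-RB the shares were 16 and 14.3% in control and 12.5 and 27.3% in KO. Both rest on 2 to 9 reads per library with overlapping intervals. The length of crc-RB, 2515 bases, equals the number of bases crc shares with CG46314, so its reads may not be its own.

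**Figure D2:**
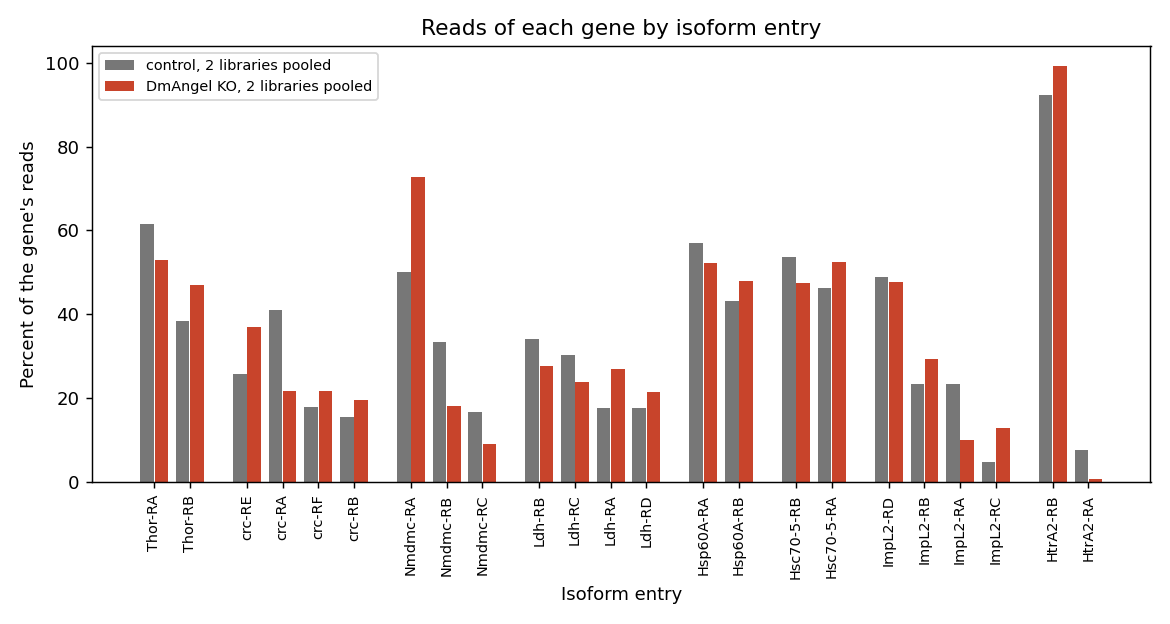
Share of each gene's reads on each of its isoform entries, in percent, with the 2 libraries of a group pooled, grey for control and red for DmAngel KO. HtrA2-RB holds nearly all HtrA2 reads in both groups, while the entries of Hsp60A and Hsc70-5 share theirs almost evenly.

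Levels of different genes were compared per kilobase of transcript. In control, Hsp60A was highest at 43.5 ± 0.54 RPM per kb (mean ± SD, n = 2), followed by Hsc70-5 at 36.9 ± 7.71, Ldh at 34.7 ± 13.1, ImpL2 at 13.9 ± 1.36, crc at 12.2 ± 4.39, Thor at 10.7 ± 1.73, Nmdmc at 4.85 ± 5.93 and HtrA2 at 2.64 ± 1.27. Neighbours in this order overlapped except Hsp60A with Hsc70-5, Ldh with ImpL2, and Thor with Nmdmc. In KO the order was Hsp60A at 146.7 ± 11.6 RPM per kb, HtrA2 at 131 ± 118, Hsc70-5 at 84.8 ± 1.42, Ldh at 82.5 ± 2.04, Thor at 66.1 ± 1.90, ImpL2 at 59.9 ± 2.90, crc at 20.0 ± 0.51 and Nmdmc at 8.51 ± 2.59. The place of HtrA2 differed between the KO libraries, first in KO replicate 1 at 215 RPM per kb and below 5 of the other genes in KO replicate 2 at 47.6, and its range overlapped both of its neighbours. When all reads of a gene, those on UTR included, were divided by its coding length, the control order was the same. In KO HtrA2 then came first at 259 ± 233 RPM per kb, before Hsp60A at 200 ± 15.7 and Thor at 134 ± 2.65. This is not a density on coding sequence, and the isoform split of HtrA2 leaves it unknown how many of its reads were coding.

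For each of the 7 genes tested, the gene with the most similar pattern over the 4 libraries was looked up among the 857 or 858 others with a mean of at least 50 reads, by the root mean square distance of centred log2 RPM. The nearest was CG17032 to crc (distance 0.015), Xrp1 to Hsp60A (0.039), Nplp2 to Hsc70-5 (0.061), sls to Ldh (0.061), MFS3 to ImpL2 (0.088) and Irp-1B to Thor (0.26). Xrp1 encodes a bZIP transcription factor of the fly stress response, Irp-1B an iron regulatory protein and sls the giant sarcomere protein of muscle. HtrA2 had no close neighbour, with Ugt37A3 nearest at 0.67 and 105, 32, 1508 and 989 reads. With 4 libraries in 2 groups, such distances describe these libraries only.

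Other genes of the same pathways were taken from 8 lists drawn up by function, which held 216 genes, of which 115 were tested. With edgeR's adjusted p under 0.05, 7 of the 115 rose in KO and 2 fell, together 7.83% against 11.2% of all genes tested. The median log2 fold change of the 115 was 0.41, beside 0.01 for all genes. DESeq2 called 3 higher and 1 lower, beside 68 higher and 180 lower among all 3003 genes. At an unadjusted p under 0.05 edgeR gave 31 higher and 4 lower, beside 378 higher and 455 lower of the 3003. The unadjusted counts of the lists below stand beside the same totals, and nothing is read from them. Directions and calls below hold for TMM scaling. Another scaling moves all genes together, by 0.70 in the median without TMM factors and by -1.50 with library size from all rows. The filter on low counts keeps a gene with enough reads in 2 libraries, so a gene low in control can pass through KO alone. No conclusion is therefore drawn from how many genes of a list lie above 0.

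Among genes that act upstream of ATF4 or beside it, 1 of 9 tested rose and none fell with edgeR (11.1%), with a median of 1.07 and all 9 above 0. At an unadjusted p under 0.05, 5 were higher and 0 lower, and DESeq2 called 0, giving no adjusted p for Sesn. Sesn, sestrin, an inhibitor of the growth kinase TORC1, had 4, 0, 13 and 15 reads in control 1, control 2, KO 1 and KO 2 (log2 fold change 2.80 ± 0.66, edgeR adjusted p = 0.0168). The call was lost without control replicate 1, control replicate 2 or KO replicate 2, at adjusted p = 0.0647, 0.148 and 0.146 in edgeR. Sesn lies 18668 bases from angel on 2R, so its reads come from a stretch linked to the deleted gene, and 3097 of its exon bases are shared with CG46429 on the same strand. PEK, the eIF2alpha kinase of the endoplasmic reticulum, and Xrp1 did not pass, at log2 fold changes of 1.07 ± 0.42 (edgeR adjusted p = 0.121) and 1.09 ± 0.37 (adjusted p = 0.0776). Xrp1 had 42.3 and 41.6 RPM in control and 131 and 156 RPM in KO, and it did pass over genes with a mean of at least 50 reads (edgeR adjusted p = 0.0159), with transcripts as rows (0.0215) and without TMM factors (0.0051), where PEK passed too (0.00976).

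Of 29 metabolic genes of the kind ATF4 controls, 3 rose and none fell with edgeR (10.3%), with a median of 0.36 and 19 above 0. At an unadjusted p under 0.05, 9 were higher and 2 lower, and DESeq2 called 0, giving no adjusted p for Cbs or aay. Cbs, cystathionine beta-synthase of the transsulfuration pathway, had 10, 1, 26 and 19 reads (2.09 ± 0.53, edgeR adjusted p = 0.0232). The phosphoserine phosphatase gene aay had 6, 4, 24 and 16 reads (1.94 ± 0.52, adjusted p = 0.0303), and Pepck1, which makes phosphoenolpyruvate in gluconeogenesis, had 54, 10, 93 and 68 reads (1.46 ± 0.40, adjusted p = 0.0354). None of these 3 kept its call whichever library was left out. Without KO replicate 1 the edgeR adjusted p was 0.157 for Cbs, 0.266 for aay and 0.164 for Pepck1, and without KO replicate 2 it was 0.104, 0.149 and 0.104, while aay also lost its call without control replicate 1 (0.373) and without the filter on low counts (0.065), and Pepck1 without control replicate 2 (0.0961). Exon bases of Pepck1 shared with CG45087 on the same strand numbered 2486. The most abundant genes of the list that did not pass were Gdh, glutamate dehydrogenase, at -0.89 ± 0.33 (edgeR adjusted p = 0.104) and the aminotransferase gene Got2 at -0.42 ± 0.36 (adjusted p = 0.480).

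Of 15 other mitochondrial chaperones and proteases, 2 rose and none fell with edgeR and with DESeq2 (13.3%), with a median of 0.82. At an unadjusted p under 0.05, 6 were higher and 0 lower. No log2 fold change of the 15 was below 0. In RPM each had both KO libraries above both controls, beside 57% of all genes tested. Genes low in control, such as Hsp22 and Afg3l2, passed the filter through their KO libraries, so nothing is read from this shared direction. Relative to the median of all genes, the median of this list was 0.81 to 0.89 over 7 other scalings. A scaling moves all genes together and so nearly cancels in such a value, and nothing is read from that narrow range. Hsp22, a small heat shock protein of mitochondria, had 2, 2, 34 and 56 reads (4.42 ± 0.67, edgeR adjusted p = 0.00121). It kept its call in each of the 14 other settings that tested it. Hsp22 shares 1900 exon bases with CG4456 on the same strand, which had 4, 2, 20 and 22 reads. Afg3l2, a subunit of the m-AAA protease of the inner membrane, had 22, 1, 58 and 53 reads (2.44 ± 0.55, adjusted p = 0.0138), with KO libraries of 102 and 102 RPM and controls that differed, at 16.6 and 2.19 RPM. The prohibitin genes Phb2 and Phb1 did not pass, at 1.03 ± 0.40 (edgeR adjusted p = 0.116) and 1.13 ± 0.43 (adjusted p = 0.114), although both passed without TMM factors (0.00885 and 0.00899) and Phb1 with transcripts as rows (0.0279).

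**Figure D3:**
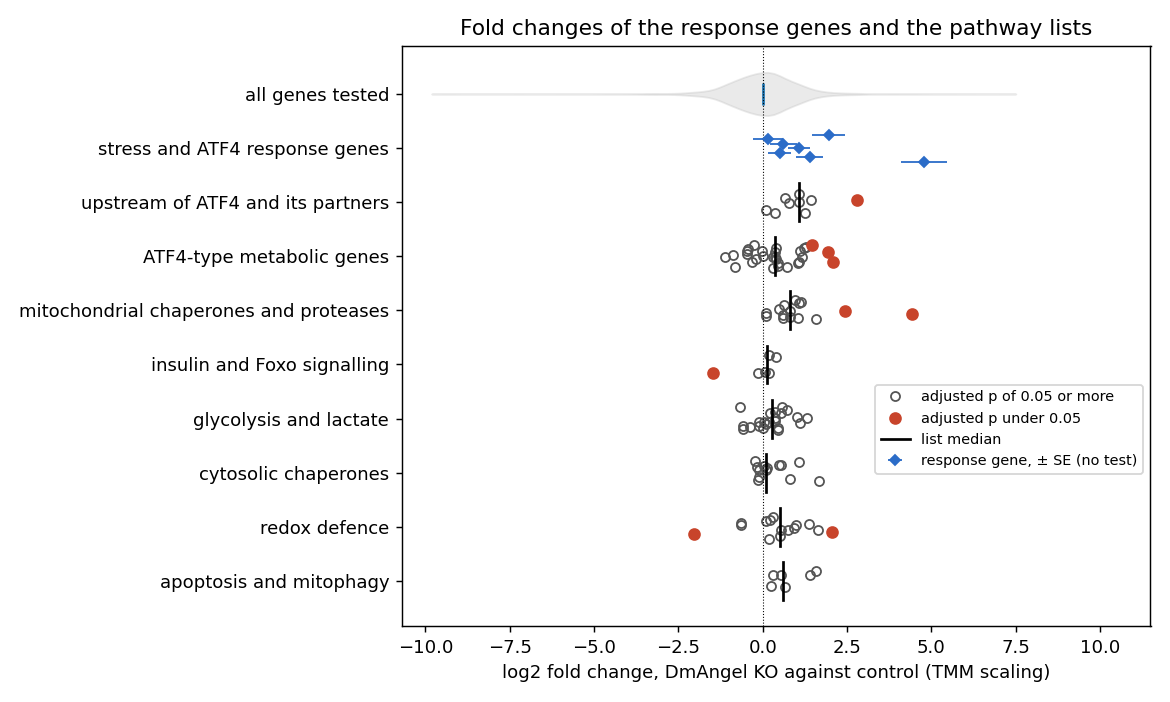
Log2 fold change of KO against control with TMM scaling for all 3003 genes tested (grey shape, bar at the median), the 7 response genes tested (blue, ± SE, no test) and the genes of 8 pathway lists (circles, filled where the adjusted p was under 0.05, bar at the list median). HtrA2 at 4.78 and Hsp22 at 4.42 stand farthest to the right, and on this scaling no gene of the mitochondrial chaperone and protease list lies below 0. Genes low in control could pass the filter on low counts through KO alone.

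The insulin and Foxo list had 6 genes tested, of which 1 fell and none rose with edgeR and with DESeq2 (16.7%; 0 higher at an unadjusted p under 0.05), with a median of 0.12. It was tobi, an alpha-glucosidase gene of the fat body that responds to insulin and glucagon-like signals, with 289, 74, 70 and 50 reads (-1.49 ± 0.35, edgeR adjusted p = 0.0164). That call was lost without KO replicate 1 (adjusted p = 0.07 in edgeR), without KO replicate 2 (0.158) and without TMM factors (0.121, or 0.0969 with fat body marker rows also removed). The kinase gene Pdk1 at 0.20 and the activin ligand gene daw at 0.18 did not pass (edgeR adjusted p = 0.818 and 0.834).

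In glycolysis 22 genes were tested beside Ldh and none passed with edgeR or DESeq2 (0%), while 2 were higher at an unadjusted p under 0.05. The median was 0.29, with Gapdh2 at 0.55 and the aldolase gene Ald1 at 0.20 (edgeR adjusted p = 0.333 and 0.758). None of 13 cytosolic chaperones passed with either tool, 3 were higher at an unadjusted p under 0.05, and the median was 0.11. Hsc70-4, the constitutive cytosolic Hsp70, stood at 0.81 ± 0.36 (edgeR adjusted p = 0.162) and Hsp83 at -0.17 ± 0.44 (adjusted p = 0.833). Hsp60A and Hsc70-5, at 1.07 and 0.50, lay within the range of this list, from -0.22 for stv to 1.66 for Hsp27. Both were picked on this contrast, so nothing is read from their place beside the list median, which was not tested.

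Of 15 redox genes, 1 rose and 1 fell with edgeR (13.3%), with a median of 0.52. At an unadjusted p under 0.05, 4 were higher and 1 lower, and DESeq2 called 1 higher and 0 lower, giving no adjusted p for GstE1. Prx2, a peroxiredoxin, had 39, 10, 105 and 89 reads (2.06 ± 0.38, edgeR adjusted p = 0.00418). GstE1, a glutathione transferase, had 30, 14, 9 and 2 reads (-2.03 ± 0.56, adjusted p = 0.0358), a call lost without KO replicate 2 (0.265 in edgeR), without TMM factors (0.0866, or 0.0753 with fat body marker rows also removed) and with transcripts as rows (0.0687). Catalase, Cat, at 0.31 and GstD1 at 0.52 did not pass (edgeR adjusted p = 0.617 and 0.330). In apoptosis and mitophagy none of 6 genes passed with either tool, 2 were higher at an unadjusted p under 0.05, and the median was 0.61, with the outer membrane channel gene porin at 0.67 and cytochrome c, Cyt-c-p, at 0.26 (edgeR adjusted p = 0.213 and 0.721).

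Markers of tissue and stage moved with genotype beside these values. All 6 fat body markers had reads in both groups, and their summed level was lower in both KO libraries than in both controls, as given above. Summed muscle markers (6 of 6 with reads) were at 2854 and 3299 RPM in control and 10023 and 5096 RPM in KO. KO replicate 1, the library with more HtrA2, was the higher KO library here and in fat body, midgut and larval cuticle markers. Salivary glue reads were too few in KO to rank its libraries. KO replicate 1 was the lower in hemocyte and neuron markers. Salivary glue genes, which larvae express late in the last instar, summed to 170 and 328 RPM in control and to 1.76 and 0 RPM in KO, where 4 of 5 were at 0. Midgut markers were at 14286 and 10699 RPM in control and 10694 and 6457 RPM in KO, and neuron markers at 33.2 and 28.4 RPM in control and 54.7 and 69.5 RPM in KO. The groups overlapped in hemocyte markers (1081 and 1534 RPM in control, 1216 and 1741 RPM in KO) and larval cuticle markers (7304 and 8494 RPM, then 7948 and 5525 RPM). The part of these differences in the values of the 8 genes was not tested. In libraries from whole larvae, fewer cells of a type and less RNA per cell cannot be told apart.

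**Figure D4:**
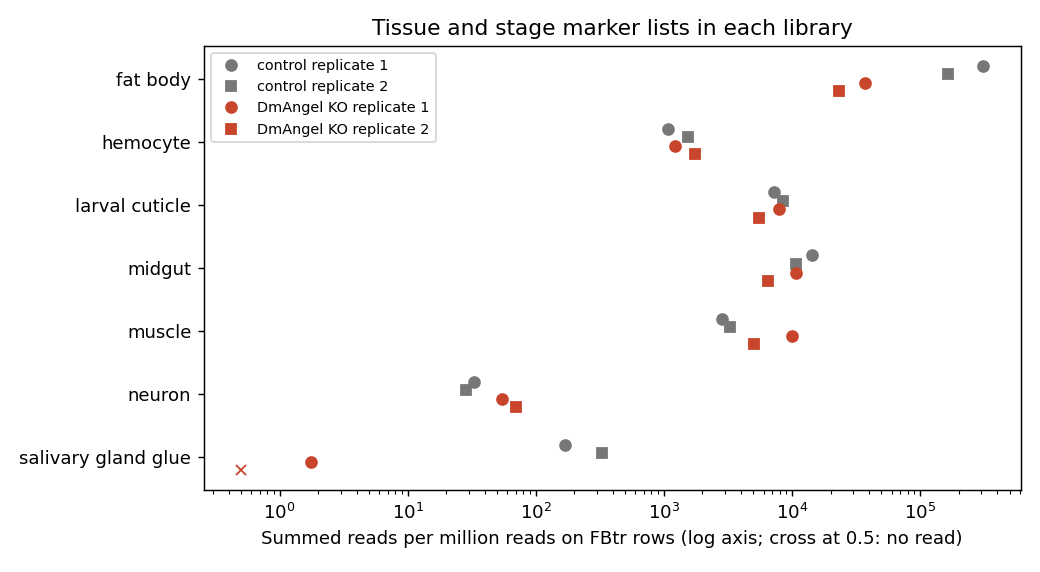
Summed RPM of 7 tissue and stage marker lists in each library on a log axis, grey for control and red for DmAngel KO, with a cross where no read was found. Fat body and salivary glue markers are lower in both KO libraries than in both controls, and muscle markers are higher.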

How the data were processed

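Per the labels and the study's methods, the authors trimmed and merged reads (BBTools), removed reads on non-coding RNA, aligned the rest in sense orientation with Bowtie2 to Ensembl fly transcripts with edited mitochondrial entries, and deposited counts per transcript entry in each of the 4 libraries (34917 rows, 35 of them mtDNA). Of 34882 FBtr rows, 34713 matched the Ensembl BDGP6.54 annotation, release 115, and were summed per gene; the other 169 stayed as single rows. No sequence is shown because none was used here.

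Counts were filtered with filterByExpr, scaled with TMM on the FBtr sum and tested with edgeR 4.0.16 (glmQLFit and glmQLFTest, R 4.3.3) over 3003 genes with Benjamini-Hochberg adjustment at 0.05, all 4 libraries in 1 fit without covariates. DESeq2 1.42.0, other scalings and filters, a replicate block, transcripts as rows, removal of rRNA or marker rows and leaving out each library were the alternatives. The fit was tested on simulated data. Replicates differed beyond counting noise (chi-square per degree of freedom 20.5 in control, 8.70 in KO), and the biological coefficient of variation was 0.271. FBtr reads numbered 1324943 and 457054 in control and 566679 and 518033 in KO, so intervals are widest in control replicate 2. GEO's design text speaks of technical replicates and the methods of independent samples.

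Members and lists were chosen with earlier results of these data known. Named were the 8 genes, from each list up to 3 called genes per direction by absolute log2 fold change and the 2 most abundant not called, the nearest gene to each member tested, and genes overlapping a member.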

Additional observations from a re-analysis of the deposited data

How the results depend on the processing

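Of 15 alternatives, 13 were planned and 2, which removed marker rows, were chosen after seeing the data. With all libraries 125 genes were higher and 210 lower. The counts were 735 and 117 without TMM factors, 31 and 2672 with library size from all rows, 78 and 100 over the 858 genes with a mean of at least 50 reads, and 191 and 116 without TMM factors and fat body marker rows, while DESeq2 gave 68 higher. The share of calls that were higher was 37.3%, and ran from 1.15% with library size from all rows to 86.3% without TMM factors. The replicate block gave 251 higher and 377 lower and added calls for Xrp1, Gdh, Phb1 and Hsc70-4; the numbers were not taken to pair the libraries, since no label says so and deviations of same-numbered libraries correlated at 0.175 over 3003 genes. Leaving out 1 library gave 92 to 175 higher and 119 to 436 lower, the lone library of a group being assumed to vary like the others. Without control replicate 1 the crc value relative to the median of all genes turned to -0.35, in a range of -0.35 to 0.29 over the libraries left out. With library size from all rows the log2 fold changes of daw (-1.30), Pdk1 (-1.26), Ald1 (-1.18), Cat (-1.09) and Cyt-c-p (-1.16) turned negative and were called, 13 named genes and 5 members turned negative in all, and the median of all genes was -1.50. Under that setting Cbs, aay, Pepck1, Afg3l2 and Prx2 also lost their calls, and Pepck1 did with DESeq2 (adjusted p = 0.071). Calls were gained for 8 named genes without TMM factors, 3 with library size from all rows, 2 each over genes with a mean of at least 50 reads and with transcripts as rows, and for Gdh without control replicate 2. The causes were not tested. The median of the 7 members tested, relative to that of all genes, was 1.06 and ran from 0.85 to 1.34 over the alternatives. A change of scaling alone nearly cancels in such a relative value. Depth limited crc, Nmdmc and Thor, each with under 100 reads in all.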

Other observations

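Sesn was the only called gene among the 13 tested within 200000 bases of angel on 2R, a window chosen after seeing the values. The median log2 fold change of those 13 was -0.32. Within 1000000 bases, 3 of 64 genes tested were higher and 3 lower with edgeR, with a median of -0.17.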
